A study of Mus musculus with 27 samples.

Results

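The 10 genes described here encode secreted proteins that start or block Wnt signalling: the secreted frizzled-related proteins Sfrp1, Sfrp2, Sfrp4 and Frzb, the Dickkopf proteins Dkk2 and Dkk3, the Wnt inhibitory factor Wif1, and the ligands Wnt5a, Wnt9a and Wnt10b. They are 10 of the 24825 genes with a value in each sample. They were chosen by symbol with values of these samples in view, and the value that led to the choice was the level of Sfrp2 at day 0, the most raised gene with full-length NFIA. Levels at day 0, the changes of control and full-length NFIA-expressing cells from day 0 to day 7, which use the same samples, and every change of Sfrp2 from day 0 are therefore given as descriptions with no test.

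The cells were of C2C12, an established line of mouse myoblasts that can fuse into muscle fibers. NFIA (nuclear factor I-A), a transcription factor of brown adipocytes, was introduced with a retroviral vector (pMXs), either as the full-length protein or as the Δpro#3 mutant, which lacks a C-terminal proline-rich stretch, so that both were expressed far above the level of the line itself. Cells with full-length NFIA, cells with the Δpro#3 mutant and control cells were collected at day 0, at day 7 of adipogenic culture, and at day 7 after 4 h with 10 µM forskolin, an activator of adenylyl cyclase that raises cAMP, with 3 samples in each of the 9 groups (27 samples). From confluence, all day 7 groups, controls included, had received serum with isobutylmethylxanthine, indomethacin and dexamethasone together with insulin, T3 and rosiglitazone at first, and afterwards serum with insulin, T3 and rosiglitazone only. The sources used here do not say that replicates came from separate cultures, so p-values measure the spread between these samples, which may be technical.

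Wnt ligands are secreted lipid-modified proteins that bind frizzled receptors with the co-receptors LRP5 or LRP6. In the canonical branch this stabilizes beta-catenin, which enters the nucleus and acts with TCF/LEF factors. Secreted frizzled-related proteins and WIF1 bind the ligands outside the cell, whereas DKK2 binds LRP5 and LRP6. DKK3 is a divergent member of its family that does not act in the same way. In mesenchymal cells, WNT10B is known to restrain adipogenesis and to favour other fates, and several of the antagonists are made by preadipocytes and fibroblasts.

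The values are FPKM, the fragments of a gene scaled to its length and to the total fragments of the sample, so levels of different genes can be set side by side per length. The samples held 9567769 to 27230965 fragments. Nfia read 0.0885 to 7.35 FPKM in the 9 control samples and 225 to 594 FPKM in the 18 others, which matches the labels, although these reads do not tell the full-length from the mutant form. Control day 0 replicate 2, at 7.35 FPKM of Nfia against 0.879 and 0.175 in the other control samples of day 0, stood apart. So did Δpro#3 day 7 replicate 1, in which the fatty acid binding protein Fabp4 was at 1415 FPKM against 294 and 354 in its group. The summed level of 12 muscle markers was 14388 to 16682 FPKM in control cells, 2389 to 3332 in full-length NFIA-expressing cells and 15913 to 16915 in Δpro#3 mutant-expressing cells at day 7. That of 10 adipocyte markers was 361 to 398, 13580 to 15092 and 634 to 2056 FPKM. At day 0 the muscle sum was 1763 to 1881 FPKM in control cells, 147 to 154 with full-length NFIA and 442 to 450 with the mutant. Single muscle genes went both ways between mutant and control cells at day 7. Myog was at 489 against 1275 FPKM and Tnnt3 at 931 against 1646 FPKM, while Acta1 was at 4832 against 2825 FPKM and Actc1 at 1338 against 916 FPKM. Of 8 macrophage and endothelial markers, Ptprc and Adgre1, which define the blood lineage and macrophages, were at or near 0 (group means of at most 0.0165 FPKM), as were the endothelial Pecam1 and Cdh5 (at most 0.17), while the endothelial Kdr was at 1.17 FPKM with full-length NFIA and 0.0648 FPKM in control cells after forskolin and at most 0.526 FPKM in the other groups. The summed level of the list, most of it from the lysosomal Cd68, was 2.76 to 26.7 FPKM. Of 9 mesenchymal and fibroblast markers, Thy1 stayed below 0.1 FPKM in every group. The summed level of that list at day 7 was 1492 to 1673 FPKM in control cells, 1487 to 1617 with full-length NFIA and 2434 to 3180 with the mutant. The part of these markers in the results below was not tested.

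NFI proteins bind DNA as dimers, each unit reading TTGGC, which is GCCAA on the other strand. A full site has the first motif, 5 bases of any kind and then the second, and both strands were searched. Windows from 250 bases before to 50 bases after the transcription start were read from RefSeq (GRCm38.p6) for 6 of the 10 members: Sfrp2, Frzb, Dkk2, Wif1, Wnt9a and Wnt10b. Sfrp2 held 2 single motifs, at -83 and -32 from the start. Frzb (-8) and Wnt10b (37) held 1 each, Dkk2, Wif1 and Wnt9a none, and no member a full site. Among all 32851 windows, 46.7% held at least 1 single motif, 14.4% at least 2 and 0.0365% a full site. These windows are shown for Sfrp2 (chr3:83766071-83766370, plus strand) and Wnt10b (chr15:98778101-98778400, minus strand), the members of these 6 with the highest levels with full-length NFIA at day 0, and for Dkk2 (chr3:132085042-132085341, plus strand), whose level was then close to that of control cells. The capitals mark single motifs.
Sfrp2: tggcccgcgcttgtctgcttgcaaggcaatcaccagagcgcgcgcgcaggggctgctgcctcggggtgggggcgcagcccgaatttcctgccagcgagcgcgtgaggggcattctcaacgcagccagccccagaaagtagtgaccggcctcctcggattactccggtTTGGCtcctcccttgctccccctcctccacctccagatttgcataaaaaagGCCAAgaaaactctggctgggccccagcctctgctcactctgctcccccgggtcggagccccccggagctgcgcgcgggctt
Wnt10b: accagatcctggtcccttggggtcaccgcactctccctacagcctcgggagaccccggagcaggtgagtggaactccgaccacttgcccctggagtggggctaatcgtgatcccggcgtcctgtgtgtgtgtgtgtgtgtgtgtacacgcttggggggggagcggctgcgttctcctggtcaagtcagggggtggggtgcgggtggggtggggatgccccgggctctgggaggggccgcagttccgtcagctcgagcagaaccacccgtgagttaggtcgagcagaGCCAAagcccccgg
Dkk2: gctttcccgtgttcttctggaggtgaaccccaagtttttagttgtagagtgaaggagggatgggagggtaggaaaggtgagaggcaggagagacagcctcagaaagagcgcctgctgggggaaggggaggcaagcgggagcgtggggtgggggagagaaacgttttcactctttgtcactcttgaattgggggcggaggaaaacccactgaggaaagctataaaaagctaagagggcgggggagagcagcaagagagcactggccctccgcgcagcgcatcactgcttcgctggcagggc
A match or its absence describes these letters only, and binding was not measured in the files used here.

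**Figure D1:**
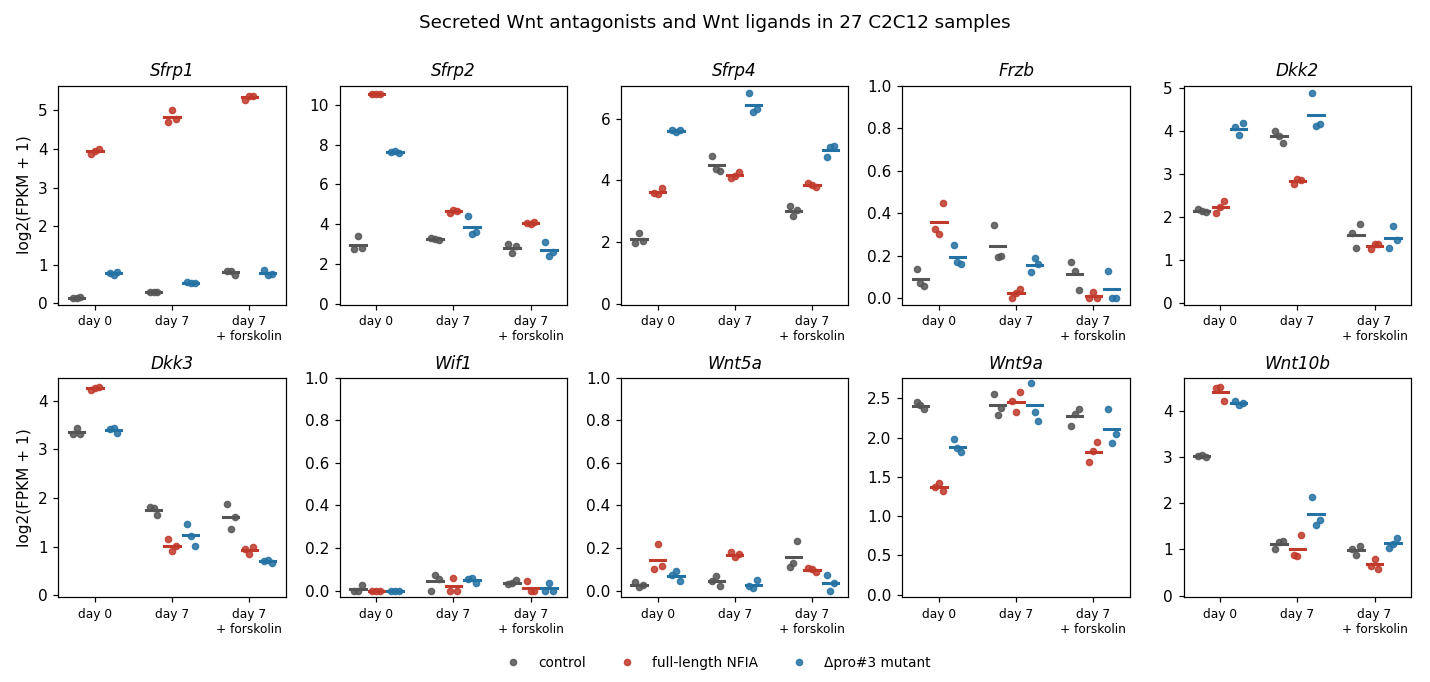
Expression of the 10 members in 27 samples, as log2(FPKM + 1), at day 0, day 7 and day 7 with forskolin. Points are single samples and bars the means of 3 samples in control (grey), full-length NFIA- (red) and Δpro#3 mutant-expressing (blue) cells. Sfrp2 with full-length NFIA lies far above all other groups at day 0 only, Sfrp1 is high with full-length NFIA throughout, Sfrp4 is highest with the Δpro#3 mutant, Dkk2 drops with forskolin, and Frzb, Wif1 and Wnt5a stay near 0; each panel has its own scale.

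Sfrp2 (chr3:83570243-83578238 of mm9, plus strand; its product is an extracellular frizzled-like ligand trap) was the member with the widest range of levels in FPKM, though not as a ratio. At day 0, it was at 5.79, 9.45 and 5.96 FPKM in the control samples, at 1487, 1503 and 1462 FPKM in the full-length NFIA samples and at 200, 202 and 188 FPKM in the Δpro#3 samples. The 3 groups lay apart, and with full-length NFIA Sfrp2 was between place 12 and place 15 of all genes by FPKM. The mean was 210-fold that of control cells with full-length NFIA (253-fold without control replicate 2) and 27.8-fold with the Δpro#3 mutant, which was 7.55-fold below full-length NFIA. The values with full-length NFIA and in control cells led to the choice of the gene, and none of the values at day 0 carries a test. Of the summed FPKM of the 10 members, Sfrp2 made up 20.4% in control, 95.5% in full-length NFIA- and 67.7% in Δpro#3 mutant-expressing cells at day 0.

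By day 7, Sfrp2 was at 22.7, 24.9 and 24.5 FPKM with full-length NFIA, at 20.2, 10.5 and 11.3 FPKM with the Δpro#3 mutant and at 8.99, 8.46 and 8.27 FPKM in control cells. All samples of both NFIA forms were above all control samples, and full-length NFIA above the mutant. The drop from day 0 was 61.7-fold in the mean with full-length NFIA, while control cells were at overlapping levels (8.57 ± 0.37 against 7.07 ± 2.1 FPKM, SD, n = 3 each). With the Δpro#3 mutant, the mean at day 7 was 14-fold below that at day 0. At day 7, Sfrp2 was higher with full-length NFIA than in control cells by 1.39 on the log2(FPKM + 1) scale (SE 0.19, limma adjusted p = 6.9e-05), and the mutant was below full-length NFIA (-0.79, SE 0.19, limma adjusted p = 0.0038). The mutant's difference from control cells was 0.59 (limma adjusted p = 0.0243), 0.31 without its replicate 1 (0.0041), and lost its p without control replicate 2 (0.0608) or 3 (0.0674).

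After forskolin, Sfrp2 was at 7.05, 4.98 and 6.41 FPKM in control, 15.9, 15.3 and 16.2 FPKM in full-length NFIA- and 7.67, 4.3 and 5 FPKM in Δpro#3 mutant-expressing cells. Full-length NFIA was above both other groups, which overlapped. It was higher than in control cells by 1.25 (SE 0.16, limma adjusted p = 4.07e-05), and the mutant was lower than full-length NFIA by 1.37 on this scale (-1.37, limma adjusted p = 2.55e-05). Forskolin lowered Sfrp2 with the Δpro#3 mutant (-1.15, SE 0.19, limma adjusted p = 0.00022; -0.87 without its day 7 replicate 1). With full-length NFIA its change was -0.57 (limma adjusted p = 0.018, but 0.0654 with median-ratio scaling), and in control cells -0.43 (0.13, but 0.0327 without that mutant library, which enters the fit). The mutant differed from control cells by -0.12 after forskolin (limma adjusted p = 0.566; -0.33 and 0.0423 without its replicate 1). No difference between the responses passed the threshold (limma adjusted p from 0.148 to 0.737), although without Δpro#3 forskolin replicate 1 the response of the mutant differed from those of control cells (-0.92, limma adjusted p = 0.036) and of full-length NFIA (-0.78, 0.0353).

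Sfrp1 (chr8:24521974-24560104 of mm9, plus strand), a close relative of Sfrp2 that also traps Wnt ligands, was high with full-length NFIA and low in all other groups. At day 0 it was at 13.7, 14.4 and 15.1 FPKM with full-length NFIA, 0.0964, 0.0924 and 0.123 FPKM in control cells and 0.72, 0.679 and 0.759 FPKM with the Δpro#3 mutant. At day 7 it was at 25, 31.4 and 26.6 FPKM with full-length NFIA, 0.225, 0.231 and 0.234 FPKM in control cells and 0.465, 0.438 and 0.452 FPKM with the mutant. Every full-length NFIA sample lay above every other sample at both times. The control value at day 7 rested on 44 fragments over 3 samples, and Sfrp1 passed the filter on low values only through the full-length NFIA group, so it had to differ. The mean with full-length NFIA was 120-fold that of control cells and 61.2-fold that of the mutant, given here with no test.

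After forskolin, Sfrp1 was at 37.5, 40 and 40.7 FPKM with full-length NFIA, 0.802, 0.776 and 0.666 FPKM in control cells and 0.835, 0.652 and 0.684 FPKM with the Δpro#3 mutant. The group means were then above the filter of 0.5 FPKM in all cell types. Full-length NFIA was higher than control by 4.53 after forskolin (SE 0.07, limma adjusted p = 7.13e-12), and the mutant was below full-length NFIA (-4.55, 1.63e-11). Adipocyte markers were higher and muscle markers lower in the same cells, and in bulk RNA a change in the share of cells of a type and a change in RNA per cell cannot be told apart. At day 7 the mutant and control cells were both below the filter, so their values are given with no test, and after forskolin they differed by -0.02 (limma adjusted p = 0.84). Forskolin raised Sfrp1 in control cells (0.51, SE 0.07, limma adjusted p = 0.000112) and with full-length NFIA (0.50, SE 0.07, 3.18e-05), and with the mutant by 0.25 (0.0168), lost without forskolin replicate 1 (0.20, 0.0694). As a ratio of means, this was 3.25-fold in control and 1.43-fold in full-length NFIA-expressing cells. The control mean at day 7 was below the filter, on 44 fragments, so the change in control cells is not counted as a firm result. On log2(FPKM + 1) the difference between these responses was near 0 (limma adjusted p = 0.982), whereas it was -0.84 with a pseudocount of 0.1 (0.00068) and -1.17 in limma-voom on fragments (0.00396). For the mutant against control, the difference between the responses was -0.26 (limma adjusted p = 0.187), but -0.78 with a pseudocount of 0.1 (0.00674). For the mutant against full-length NFIA it was -0.26 (limma adjusted p = 0.0977), passed with median-ratio scaling (-0.38, 0.0222) or without full-length NFIA day 7 replicate 2 (-0.35, 0.0168), and was 0.0569 with a pseudocount of 0.1 and 0.14 in limma-voom.

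Sfrp4 (chr13:19714973-19724863 of mm9, plus strand), a frizzled-related protein made by fat and bone cells, followed another order, with the Δpro#3 mutant highest at every time. At day 0 it was at 48.6, 46.3 and 48.4 FPKM with the mutant, 10.9, 10.9 and 12.6 FPKM with full-length NFIA and 2.95, 3.95 and 3.1 FPKM in control cells. At day 7 it was at 114, 73.7 and 78 FPKM with the mutant, 15.9, 16.8 and 18.5 FPKM with full-length NFIA and 26.6, 19.6 and 18.9 FPKM in control cells. Full-length NFIA was thus above control at day 0 and just below it at day 7, where the lowest control sample exceeded the highest full-length NFIA sample. Control cells had 6.52-fold more Sfrp4 at day 7 than at day 0, and full-length NFIA-expressing cells 1.49-fold.

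At day 7, Sfrp4 was higher with the Δpro#3 mutant than in control cells by 1.97 (SE 0.17, limma adjusted p = 1.22e-05; 1.77 without replicate 1 of the mutant) and than with full-length NFIA by 2.28 (SE 0.17, 9.38e-07; 2.09 without it). Of the mesenchymal and fibroblast markers, 3 of 8 tested were called higher in the same comparison with control, where 1.44% of all genes were called (Ly6a, 1139 against 205 FPKM, Dcn, 691 against 128 FPKM, and Cd34, 62 against 12.9 FPKM). Others of the list were lower with the mutant, with Col1a1 at 79.4 against 217 FPKM and Col3a1 at 712 against 968 FPKM, and the median of the 8 was -0.19. Without replicate 1 of the mutant, 3 were called higher and 1 lower. The part of these markers in the difference of Sfrp4 was not tested. Full-length NFIA differed from control by -0.32 (SE 0.17, limma adjusted p = 0.109; 0.0316 without replicate 1 of the mutant, which enters the fit but not this contrast). With forskolin the samples read 7.97, 6.22 and 7.2 FPKM in control, 14.1, 13.6 and 12.9 FPKM in full-length NFIA- and 25.8, 33.3 and 33.3 FPKM in Δpro#3 mutant-expressing cells, with no overlap between groups. Full-length NFIA was then higher than control by 0.84 (SE 0.11, limma adjusted p = 3.03e-05) and the mutant by 1.97 (SE 0.11, 2.55e-07), and the mutant was above full-length NFIA by 1.12 (4.11e-06).

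Forskolin lowered Sfrp4 in control cells (-1.47, SE 0.15, limma adjusted p = 2.52e-06) and by as much with the Δpro#3 mutant (-1.47, 1.35e-06; -1.28 without its day 7 replicate 1). With full-length NFIA its change was -0.31 (SE 0.15, limma adjusted p = 0.0894; 0.036 without that mutant library). The response with full-length NFIA differed from that of control cells by 1.16 (SE 0.21, limma adjusted p = 0.000657) and that of the mutant from full-length NFIA by -1.16 (SE 0.21, 0.00104; -0.97 without that library). From day 0 to day 7, Sfrp4 rose with the mutant by 0.85 (SE 0.14, limma adjusted p = 3.87e-05; 0.66 without it).

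Frzb (chr2:80252127-80287782 of mm9, minus strand), also called sFRP3, was between 0 and 0.363 FPKM in all 27 samples, on at most 19 fragments in a sample, and was not tested since its mean did not reach the filter. At day 0, the control samples were at 0.101, 0.0503 and 0.0394 FPKM and the full-length NFIA samples at 0.254, 0.231 and 0.363 FPKM. At day 7 the order was the other way round, with 0.27, 0.142 and 0.146 FPKM in control cells (24 fragments) and 0, 0.0166 and 0.03 FPKM with full-length NFIA (2 fragments).

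Dkk2 (chr3:131748256-131843257 of mm9, plus strand), a secreted LRP5/6 antagonist, was the member that changed most with forskolin. At day 0 it was at 3.56, 3.42 and 3.34 FPKM in control cells, 3.28, 3.74 and 4.2 FPKM with full-length NFIA, which overlapped with control, and 16.2, 14.1 and 17.2 FPKM with the Δpro#3 mutant, 4.59-fold the control mean. At day 7 it was at 15.1, 13.9 and 12.4 FPKM in control cells, 5.81, 6.45 and 6.29 FPKM with full-length NFIA and 28.6, 16.4 and 16.9 FPKM with the mutant. Thus the order at day 7 was mutant, control and full-length NFIA, with no overlap. After forskolin all 3 cell types were low, at 2.11, 1.45 and 2.57 FPKM, 1.42, 1.6 and 1.6 FPKM, and 1.42, 2.47 and 1.75 FPKM in control cells, with full-length NFIA and with the mutant.

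At day 7, Dkk2 was lower with full-length NFIA than in control cells (-1.04, SE 0.17, limma adjusted p = 0.000328). It was higher with the Δpro#3 mutant than with full-length NFIA by 1.55 (SE 0.17, limma adjusted p = 2.53e-05), just inside 3-fold, and past 3-fold without replicate 2 (1.68) or 3 (1.66) of the mutant. The mutant's difference from control was 0.51 (limma adjusted p = 0.0338), 0.26 without its replicate 1 (0.0304), and lost its p without control replicate 2 (0.0726) or 3 (0.108). Forskolin lowered Dkk2 by 6.74-fold in the mean in control cells (-2.29, SE 0.18, limma adjusted p = 1.1e-07), by 4.02-fold with full-length NFIA (-1.50, SE 0.18, 2.74e-06) and by 11-fold with the mutant (-2.88, SE 0.18, 3.24e-09; -2.63 without day 7 replicate 1). The response of the mutant was larger than that of full-length NFIA (-1.38, SE 0.25, limma adjusted p = 0.000925; -1.13 without that library). The response with full-length NFIA differed from control by 0.79 (SE 0.25, limma adjusted p = 0.0239), and this was lost without control day 7 replicate 1 (0.0578), full-length NFIA day 7 replicate 1 (0.0513) or control forskolin replicate 2 (0.0678), with a pseudocount of 0.1 (0.0665) and in limma-voom (0.106). After forskolin no difference between cell types passed the threshold (limma adjusted p = 0.166, 0.704 and 0.35), except full-length NFIA against control without control replicate 2 (-0.39, 0.0328). From day 0 to day 7 the mutant changed by 0.32 (limma adjusted p = 0.0537; 0.08 without its replicate 1, and 0.0475, 0.0123 and 0.0182 as adjusted p without day 0 replicate 3, day 7 replicate 2 and day 7 replicate 3, and 0.0105 with median-ratio scaling).

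Dkk3 (chr7:119259533-119302571 of mm9, minus strand) was lower at day 7 than at day 0 in all cell types. At day 0 it was at 8.97, 9.8 and 9 FPKM in control cells, 17.5, 18.1 and 18.5 FPKM with full-length NFIA and 9.69, 9.87 and 9.18 FPKM with the Δpro#3 mutant, so full-length NFIA was 1.95-fold above control while the mutant overlapped with it. At day 7 it was at 2.51, 2.48 and 2.14 FPKM in control, 1.22, 0.879 and 1.02 FPKM in full-length NFIA- and 1.75, 1.33 and 1.02 FPKM in Δpro#3 mutant-expressing cells. The order between full-length NFIA and control had turned, and neither NFIA form overlapped with control cells. Dkk3 fell by 2.17 from day 0 to day 7 with the mutant (SE 0.09, limma adjusted p = 1.09e-12), and the day 0 mean was 17.3-fold that of day 7 with full-length NFIA and 3.9-fold in control cells.

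At day 7, Dkk3 was lower than in control cells with full-length NFIA (-0.73, SE 0.12, limma adjusted p = 0.000275) and with the mutant (-0.52, SE 0.12, 0.00477), and the forms differed by 0.21 (0.153; 0.0391 without replicate 3 of the mutant). After forskolin it was at 2.69, 1.56 and 2.04 FPKM in control, 0.93, 0.812 and 0.989 FPKM in full-length NFIA- and 0.64, 0.662 and 0.581 FPKM in Δpro#3 mutant-expressing cells. Both differences from control held (-0.68, limma adjusted p = 0.000366, and -0.91, 0.000128). The mutant differed from full-length NFIA by -0.23 (limma adjusted p = 0.111), which passed with median-ratio scaling (-0.29, 0.0465) and in a fit of the groups compared only (0.0427). Forskolin lowered Dkk3 with the mutant (-0.53, SE 0.12, limma adjusted p = 0.00301), where its changes in control (-0.14, 0.48) and full-length NFIA-expressing cells (-0.09, 0.537) did not pass. No difference between these responses passed (limma adjusted p from 0.0849 to 0.872), except that the mutant differed from full-length NFIA without day 7 replicate 3 (-0.54, 0.0366) or with a pseudocount of 0.1 (-0.81, 0.0484).

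Wif1 (chr10:120471016-120537706 of mm9, plus strand), which binds Wnt ligands through a domain of its own, had 15 fragments in all 27 samples together and was at 0 in 15 of them. A count of 0 allows 3 fragments, which is at most 0.14 FPKM in these samples and covers counting error only, so no difference was detectable at this depth. Wnt5a (chr14:29317936-29340633 of mm9, plus strand), a ligand of the branches that do not use beta-catenin, was at 0.175 FPKM or less throughout, on at most 26 fragments. Its level was 0.0743, 0.163 and 0.084 FPKM with full-length NFIA against 0.0267, 0.0116 and 0.0182 FPKM in control cells at day 0, and 0.133, 0.115 and 0.125 against 0.0312, 0.0471 and 0.0135 FPKM at day 7. The groups did not overlap at either time, whereas after forskolin full-length NFIA (0.0757, 0.0725 and 0.0626 FPKM) lay below control cells (0.0794, 0.0939 and 0.175 FPKM), again with no overlap. With the mutant, Wnt5a was at 0.0536, 0 and 0.025 FPKM after forskolin. Neither gene reached the filter, and neither was tested.

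Wnt10b (chr15:98602184-98608581 of mm9, minus strand), the ligand known to hold back adipogenesis, was highest at day 0 with either form of NFIA. It was at 21.6, 22 and 17.6 FPKM with full-length NFIA and 17.6, 16.4 and 17.1 FPKM with the Δpro#3 mutant, which overlapped narrowly, against 7.1, 7.29 and 6.99 FPKM in control cells. At day 7 it was at 0.845, 0.807 and 1.49 FPKM with full-length NFIA, 3.41, 1.88 and 2.1 FPKM with the mutant and 1, 1.23 and 1.26 FPKM in control cells. Levels were thus lower in all cell types at day 7, and only the mutant lay apart from control. The fall with the mutant was 2.41 on the log2(FPKM + 1) scale (-2.41, SE 0.14, limma adjusted p = 7.97e-11), and the day 0 mean was 19.4-fold that of day 7 with full-length NFIA and 6.12-fold in control cells.

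At day 7, the mutant had more Wnt10b than control cells (0.66, SE 0.17, limma adjusted p = 0.00988) and than full-length NFIA-expressing cells (0.75, SE 0.17, 0.00319), and 0.47 (0.0255) and 0.56 (0.00697) without its replicate 1. Full-length NFIA and control differed by -0.09 (0.64). After forskolin, Wnt10b was at 1.02, 0.846 and 1.09 FPKM in control, 0.551, 0.744 and 0.502 FPKM in full-length NFIA- and 1.03, 1.17 and 1.38 FPKM in Δpro#3 mutant-expressing cells. It was then lower with full-length NFIA than in control cells (-0.31, SE 0.10, limma adjusted p = 0.012) and the mutant was above full-length NFIA (0.46, 0.00154). Forskolin lowered it with the mutant (-0.64, SE 0.14, limma adjusted p = 0.00268; -0.45 without day 7 replicate 1). Its change with full-length NFIA, -0.34, had an adjusted p of 0.0538 in limma and between 0.0177 and 0.281 when 1 sample was left out. No difference between these responses passed (limma adjusted p from 0.177 to 0.449).

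Wnt9a (chr11:59120430-59147054 of mm9, plus strand), a ligand best known from joint formation, was, of the 7 tested members, the one with the most even level by group means. At day 0 it was at 4.47, 4.32 and 4.15 FPKM in control cells, 1.59, 1.68 and 1.49 FPKM with full-length NFIA and 2.94, 2.64 and 2.51 FPKM with the Δpro#3 mutant, so control was 2.72-fold above full-length NFIA with no overlap between groups. At day 7 the groups overlapped, at 4.87, 3.9 and 4.22 FPKM in control, 4.5, 3.99 and 4.99 FPKM in full-length NFIA- and 5.46, 4 and 3.64 FPKM in Δpro#3 mutant-expressing cells, and no difference passed (limma adjusted p from 0.769 to 0.998). After forskolin it was at 3.42, 3.94 and 4.17 FPKM in control cells, 2.22, 2.57 and 2.83 FPKM with full-length NFIA and 4.16, 2.83 and 3.12 FPKM with the mutant.

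Forskolin lowered Wnt9a with full-length NFIA (-0.63, SE 0.13, limma adjusted p = 0.000567), and full-length NFIA was then below control (-0.45, SE 0.12, 0.00495). The changes in control cells (-0.14, 0.516) and with the mutant (-0.29, 0.0873; 0.0214 without forskolin replicate 1 and 0.0394 without day 7 replicate 3) did not pass. The mutant differed from full-length NFIA after forskolin by 0.30 (limma adjusted p = 0.0452, between 0.0208 and 0.17 when 1 sample was left out) and from control cells by -0.16 (0.298; -0.28 and 0.0469 without its replicate 1). The former was lost with median-ratio scaling (0.19, limma adjusted p = 0.174), no filter (0.0863), a replicate block (0.0664) and a fit of the groups compared only (0.0672), and is not counted as firm. The response with full-length NFIA differed from that of control cells by -0.50 with a limma adjusted p of 0.049, which lay between 0.0244 and 0.113 when 1 sample was left out. It was lost with median-ratio scaling (0.0836), with no filter (0.0865) and in limma-voom (0.0501), and is not counted as a firm difference. The response of the mutant differed from that of full-length NFIA by 0.34 (limma adjusted p = 0.204; 0.48 and 0.0491 without mutant day 7 replicate 1). From day 0 to day 7, Wnt9a rose with the mutant (0.52, SE 0.10, limma adjusted p = 0.000189; 0.38 without replicate 1).

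**Figure D2:**
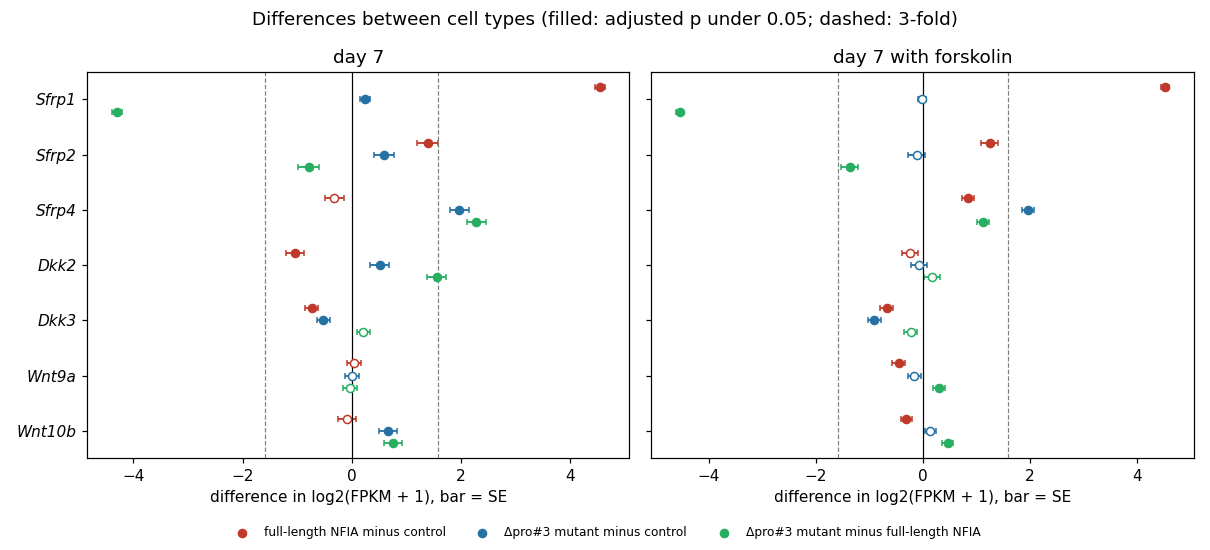
Differences in log2(FPKM + 1) between cell types at day 7 and at day 7 with forskolin for the 7 members that were tested, with SE as bars. Filled points had an adjusted p under 0.05 and dashed lines mark 3-fold. Sfrp1 lies beyond 3-fold with full-length NFIA at both times (4.54 and 4.53 against control), where at day 7 it had to differ because it passed the filter only through full-length NFIA, and Sfrp4 lies there with the Δpro#3 mutant (1.97 and 1.97).

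Over the members, a gene was called changed when its limma adjusted p was under 0.05 and FPKM + 1 differed by over 3-fold. Of the 10 members, 7 were tested, and Frzb, Wif1 and Wnt5a were not. At day 7, Sfrp1 passed the filter only through full-length NFIA and is left out of the counts. Between full-length NFIA and control, none of the other 6 was called in limma or in limma-voom, where limma called 8.17% of 12324 genes. Of these 6, 3 had an unadjusted p under 0.05 and the same number passed the adjusted p alone (Sfrp2, Dkk2 and Dkk3), where 72.4% of genes did. Between the mutant and control, 1 of 6 was called (Sfrp4; 1.44% of genes) and 5 passed the adjusted p (48.8% of genes). Between the mutant and full-length NFIA, 1 of 6 was called (Sfrp4; 6.3% of genes), 2 in limma-voom (Sfrp4 and Dkk2), and 4 passed the adjusted p (63.7%). The median difference of these members was -0.21, 0.55 and 0.48 in the 3 comparisons, and that of all genes -0.08, -0.04 and 0.03.

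After forskolin, 1 member was called between full-length NFIA and control (Sfrp1; 8.02% of 12121 genes), 1 between the mutant and control (Sfrp4; 1.55%; Sfrp4 and Dkk3 in limma-voom) and 1 between the mutant and full-length NFIA (Sfrp1; 6.2%). The adjusted p alone was passed by 6, 2 and 5 members, and by 72.5%, 46.6% and 66.2% of genes. The 5 include Wnt9a, which was lost under alternatives. For the response to forskolin, Dkk2 was called in control cells (0.392% of 12245 genes) and with the mutant (0.588%), and no member was called with full-length NFIA (0.743%), where Dkk2 changed by -1.50 and 5 members had an unadjusted p under 0.05. In limma-voom, 3 members were called in control cells (Dkk2, Sfrp1 and Sfrp4) and 1 each with full-length NFIA and with the mutant (Dkk2), so the count by cell type depends on the method. The adjusted p alone was passed by 3, 6 and 4 members in control, mutant- and full-length NFIA-expressing cells, and by 20.5%, 35.8% and 55.4% of genes. Sfrp1 counts here in control and mutant cells, and in limma-voom in control cells, although its day 7 mean was below the filter in both. The difference in response passed for 3 members between full-length NFIA and control (Sfrp4, Dkk2 and Wnt9a, of which the last 2 were lost under alternatives; 30.6% of genes), for none between the mutant and control (4.97%; limma, lowest adjusted p 0.152, 5 members with an unadjusted p under 0.05 and 0 that passed in limma-voom) and for 2 between the mutant and full-length NFIA (Sfrp4 and Dkk2; 21.7%). Without mutant day 7 replicate 1, Wnt9a also passed between the mutant and full-length NFIA. From day 0 to day 7 with the mutant, 2 of the 6 tested members other than Sfrp2 were called, both lower (Dkk3 and Wnt10b; 6.84% of 12408 genes), and 5 passed the adjusted p (79.5%). The shares of members near those of all genes are no result about the members.

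**Figure D3:**
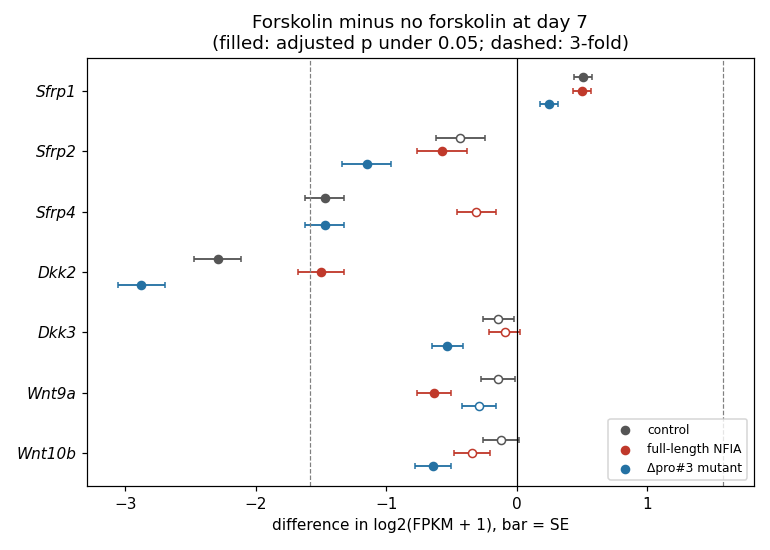
Response to forskolin at day 7 of the 7 tested members, as the difference in log2(FPKM + 1) with SE as bars, in control (grey), full-length NFIA- (red) and Δpro#3 mutant-expressing (blue) cells. Filled points had an adjusted p under 0.05 and dashed lines mark 3-fold. Dkk2 was lowered in all 3 cell types (-2.29, -1.50 and -2.88), and Sfrp4 moved by -1.47 in control and mutant cells against -0.31 with full-length NFIA.

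The levels of the members over the 9 groups fell into different orders. By mean FPKM, the order for Sfrp1 was the 3 full-length NFIA groups (39.4 after forskolin, 27.7 at day 7 and 14.4 at day 0), which did not overlap, and then all others below 0.75. For Sfrp2 the order was full-length NFIA at day 0 (1484), the mutant at day 0 (196) and full-length NFIA at day 7 (24), each apart from the next, while the 4 lowest groups, from 8.57 in control cells at day 7 down to 5.66 with the mutant after forskolin, each overlapped with the next one. Sfrp4 was led by the mutant at day 7 (88.4), day 0 (47.7) and after forskolin (30.8), the last of which overlapped with control at day 7 (21.7). Dkk2 was led by the mutant at day 7 (20.6) and day 0 (15.8), which overlapped with each other and, for day 0, with control at day 7 (13.8). Dkk3 and Wnt10b had their 3 day 0 groups on top, from 18.1 to 9.26 and from 20.4 to 7.12. Across the 9 group means, the correlation of log2(FPKM + 1) was 0.937 between Dkk3 and Wnt10b, 0.802 between Sfrp2 and Wnt10b, 0.726 between Sfrp2 and Dkk3 and 0.675 between Sfrp4 and Dkk2, as a description over 9 points that share cell types and time points.

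The genes whose 9 group means were most like those of a member were sought among 10187 genes that reached 5 FPKM in a group. For Sfrp2 they were Smad6 and Smad9, an inhibitor and a transducer of BMP signalling (r = 0.989 and 0.98), and the matrix protein Sparc (0.969). Smad6 stood at 1.56, 15.5 and 6.35 FPKM in control, full-length NFIA- and mutant-expressing cells at day 0. For Sfrp1 they were the cytochrome Cyp4b1 (0.991), the antimicrobial peptide Camp (0.987) and the cartilage matrix protein Comp (0.981), which was at 25.8, 25.9 and 25.1 FPKM with full-length NFIA at the 3 times and below 0.35 elsewhere. For Dkk2 they were Galnt15 (0.951), Stc2 (0.883) and Pkp2 (0.87), for Sfrp4 Lcmt1 (0.93), Cdadc1 (0.877) and Hoga1 (0.865), for Dkk3 Rnd3, Smc3 and Ccdc88a (each 0.992) and for Wnt10b Rpgrip1l (0.993), Cpt1c (0.99) and Crtap (0.989). These are descriptions over 9 points.

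Of 11 other secreted or cell-surface Wnt antagonists, 3 were tested (Notum, Apcdd1 and Tpbg), while Sfrp5, Dkk1, Dkk4, Sost, Sostdc1, Dkkl1, Cer1 and Draxin were at group means of 0.0582 FPKM or less. Apcdd1, a membrane inhibitor of Wnt signalling, was called higher with full-length NFIA than in control cells at day 7 (13.3 against 2.54 FPKM; 2.02, SE 0.11, limma adjusted p = 9.25e-08) and lower in mutant- than in full-length NFIA-expressing cells (-1.83, 2.71e-07). Notum, which removes the lipid of Wnt ligands, was called higher with forskolin in control cells (2.88 to 20.9 FPKM; 2.49, SE 0.16, limma adjusted p = 8.65e-09) and lower with full-length NFIA than in control cells after forskolin (1.99 against 20.9 FPKM; -2.87, SE 0.16, 4.41e-08). Its response differed from that of control cells with full-length NFIA (-3.48, SE 0.22, limma adjusted p = 1.9e-08) and with the mutant (-1.65, SE 0.22, 0.000341), and between both forms (1.83, 2.66e-05). Notum was also called higher in mutant- than in full-length NFIA-expressing cells after forskolin (2.13, limma adjusted p = 6.98e-07), and at day 7 than at day 0 with the mutant (1.68, 2.86e-10), the latter not past 3-fold without day 7 replicate 1. For Apcdd1 the differences in response were -1.52 with full-length NFIA and -0.85 with the mutant against control cells, and 0.67 between the forms (limma adjusted p = 3.28e-06, 0.00438 and 0.00653). For Tpbg they were -0.59 with full-length NFIA against control and 0.63 between the forms (limma adjusted p = 0.00226 and 0.00219). The response thus differed for all 3 with full-length NFIA against control and between the forms, where 30.6% and 21.7% of all genes did. Of all genes that differed, 29.9% and 72.9% were higher (45.3% and 51.3% with median-ratio scaling). Between the mutant and control it differed for 2 of 3 (4.97% of all genes).

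Of 16 other Wnt ligands, 3 were tested. Wnt10a, the paralog of Wnt10b, was called lower than in control cells at day 7 with full-length NFIA (0.549 against 6.23 FPKM; -2.22, SE 0.17, limma adjusted p = 8.54e-07) and with the mutant (1.11 FPKM; -1.79, 2.3e-05), and likewise after forskolin (-2.35, 6.22e-09, and -1.62, 7.88e-07). Wnt3 and Wnt9b were listed at 0 in every group. Of 7 genes for R-spondins and ligand release, Rspo2, a secreted enhancer of Wnt signalling, was at 0.138 FPKM at day 7 against 4.93 FPKM at day 0 with the mutant, with no test, since it passed the filter only through day 0. The response of Porcn, the acyltransferase that lipid-modifies Wnt ligands, differed with full-length NFIA from control (-0.45, limma adjusted p = 0.014) and from the mutant (0.45 as the mutant minus full-length NFIA, 0.0188).

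Of 25 receptors and co-receptors, 19 were tested at day 7. Without Ror2, which passed the filter only through full-length NFIA, 12 of 18 passed the adjusted p between full-length NFIA and control, a share close to the 72.4% of all genes, of which 2 were called higher and 1 lower (8.17% of all genes were called). Fzd4 was at 33.5 against 4.11 FPKM (2.75, SE 0.12, limma adjusted p = 1.56e-08) and Lrp5 at 62.7 against 17.4 FPKM (1.79, SE 0.07, 5.04e-09), whereas Fzd2 was at 5.3 against 18.8 FPKM (-1.66, SE 0.14, 2.09e-06). With the mutant, Fzd4 was called higher (17.1 FPKM; 1.82, limma adjusted p = 2.81e-06) and Ptk7 lower than in control cells (1.22 against 5.66 FPKM; -1.59, 3.11e-06), and Ptk7 was also lower than with full-length NFIA (-1.70, 3.36e-07). After forskolin Fzd4 was called higher with both forms (2.11, limma adjusted p = 7.95e-08, and 1.78, 1.85e-06), Fzd2 lower with full-length NFIA (-1.92, 2.39e-08) and Ptk7 lower with the mutant (-1.65, 6.87e-08). From day 0 to day 7, Fzd1 and Lgr4 were called lower with the mutant (-1.76 each, limma adjusted p = 1.42e-12 and 3.87e-14). The response to forskolin passed as different from control for 9 of 18 receptors with full-length NFIA (30.6% of all genes), of which 8 were lower, where 29.9% of all genes that differed were higher (45.3% with median-ratio scaling). The largest were those of Adgra2 (-1.05, limma adjusted p = 8.86e-05) and Reck (-0.95, 0.000111), partners in Wnt7 signalling, the co-receptor Ptk7 (-0.91, 6.69e-05) and the receptor tyrosine kinase Ror1 (-0.68, 0.000156). With the mutant, 3 of 18 differed from control (4.97% of all genes), Reck (-0.66, limma adjusted p = 0.0116), Fzd5 (0.55, 0.00565) and Fzd8 (-0.49, 0.00674). The difference between the forms passed for 5 of 18 (21.7% of all genes), all higher with the mutant, as were 72.9% of all genes that differed (51.3% with median-ratio scaling). Among them were Adgra2 (0.90, limma adjusted p = 0.000573), Ptk7 (0.85, 0.000222), Fzd4 (0.60, 0.0323) and Ror1 (0.57, 0.0011).

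Of 23 genes of the beta-catenin pathway inside the cell, 22 were tested. Bcl9l, a co-activator of beta-catenin, was the only one called at day 7, where 8.17% of all genes were called between full-length NFIA and control and 6.3% between the mutant and full-length NFIA. It was higher with full-length NFIA than in control cells (52.1 against 11.8 FPKM; 2.06, SE 0.06, limma adjusted p = 1.3e-09) and lower in mutant- than in full-length NFIA-expressing cells (-1.66, 8.34e-09), while beta-catenin itself (Ctnnb1) was at 118 against 105 FPKM. Tle2, a co-repressor, was called lower at day 7 than at day 0 with the mutant (-2.15, limma adjusted p = 8.91e-10). The response to forskolin differed between full-length NFIA and control for 13 of the 22 (30.6% of all genes), 10 of them lower, where 29.9% of all genes that differed were higher (45.3% with median-ratio scaling), with Tle2 (-1.21, limma adjusted p = 0.00108), Bcl9l (-0.59, 0.00029), its paralog Bcl9 (-0.51, 0.00169) and the TCF factor Tcf7l2 (-0.50, 0.00327) as the largest. Between the mutant and control it differed for 1 (4.97% of all genes), Tle2 (-0.96, limma adjusted p = 0.0263), and for none without mutant day 7 replicate 1. Between the forms it differed for 6 (21.7% of all genes), all higher with the mutant, as were 72.9% of all genes that differed (51.3% with this scaling), among them Bcl9l (0.58, limma adjusted p = 0.000573), Bcl9 (0.46, 0.0051), the inhibitor Ctnnbip1 (0.40, 0.0345) and Tcf7l2 (0.39, 0.0219). Without mutant day 7 replicate 1, it differed for 5, of which 4 were higher with the mutant and 1 lower.

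Of 16 genes known as targets of beta-catenin signalling, 11 were tested at day 7 and 1 was called, Wisp1, where 8.17% of all genes were called for full-length NFIA and 1.44% for the mutant against control. Wisp1 was lower than in control cells with full-length NFIA (3.53 against 16.1 FPKM; -1.93, SE 0.13, limma adjusted p = 4.85e-07) and with the mutant (4.58 FPKM; -1.61, 1.19e-05; not past 3-fold without replicate 1 of the mutant). After forskolin Wisp1 was again called lower with full-length NFIA (-1.80, limma adjusted p = 2.83e-08). Axin2, a general target, was below 1.5 FPKM in every group. At day 7 it was at 1.4 FPKM in control cells, 0.71 with full-length NFIA and 0.287 with the mutant, and without control cells its mean fell just short of the filter. Without Axin2, the median of the other 10 tested targets was -0.26 for full-length NFIA and -0.41 for the mutant against control. From day 0 to day 7 with the mutant, Lef1 passed the filter only through day 0 (3.44 against 0.153 FPKM at day 7) and is left out, and of the other 11 targets 1 was called higher (Wisp2, 2.17, limma adjusted p = 2.84e-11) and 4 lower, where 6.84% of all genes were called, with Id2 (-2.10, 4.93e-16), Nkd2 (-2.07, 2.26e-11) and Wisp1 (4.58 against 21.3 FPKM, 2.2e-11) as the largest. The response to forskolin of the targets differed between full-length NFIA and control for 7 of 11 (30.6% of all genes), 4 of them higher, where 29.9% of all genes that differed were higher (45.3% with median-ratio scaling), with the Notch ligand Jag1 (-1.12, limma adjusted p = 1.05e-05), Wisp2 (-0.67, 0.0135), the activin-binding Fst (0.55, 0.0114) and Id2 (0.48, 0.00968) as the largest. It differed between the mutant and control for 2 of 11 (4.97% of all genes), Wisp2 (-1.06, limma adjusted p = 0.00312) and Jag1 (-0.54, 0.0238), and between the forms for 2 (21.7%), Jag1 (0.58, 0.00511) and Fst (-0.53, 0.019). Without mutant day 7 replicate 1, 1 of 11 differed between the mutant and control.

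**Figure D4:**
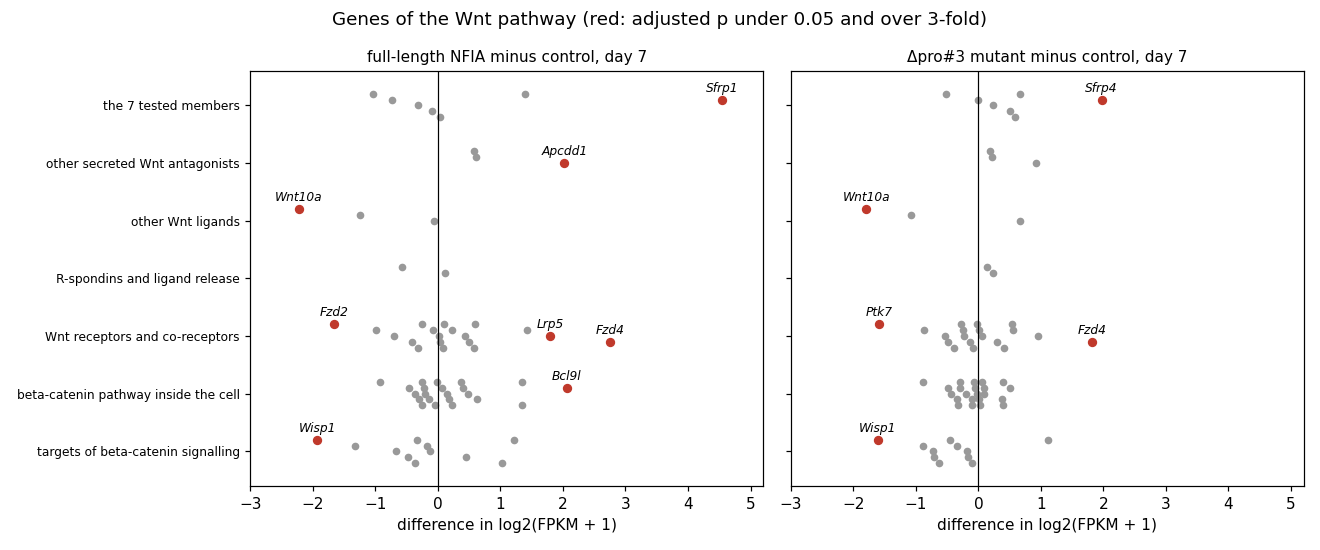
Differences in log2(FPKM + 1) from control cells at day 7 with full-length NFIA (left) and the Δpro#3 mutant (right) for the 7 tested members and for the tested genes of 6 lists of the Wnt pathway; each point is 1 gene, spread vertically for legibility. Red points with names had an adjusted p under 0.05 and changed more than 3-fold: Sfrp1, Apcdd1, Fzd4, Lrp5 and Bcl9l were higher with full-length NFIA and Wnt10a, Fzd2 and Wisp1 lower, and with the mutant Sfrp4 and Fzd4 were higher and Wnt10a, Ptk7 and Wisp1 lower. Sfrp1 passed the filter only through full-length NFIA and had to differ.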

How the data were processed

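Polyadenylated RNA of 27 C2C12 samples (9 groups of 3, from the labels) was sequenced from stranded libraries. Per the submitters' processing notes and methods, the authors aligned reads to mm9 with STAR 2.5.3a, kept unique reads and deposited FPKM per gene, neither scaled between samples nor on a log scale, with each gene's length; other values are not used here. Multiplied by length, 100% of the FPKM values came out as whole numbers of fragments (tolerance 0.05), which gave the fragments per gene.

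limma 3.58.1 (R 4.3.3) was fitted to log2(FPKM + 1), which understates changes of low genes, for genes whose FPKM averaged at least 0.5, with 1 mean per group, trended moderation and 2-sided Benjamini-Hochberg adjusted p-values over all tested genes. The 9 samples of day 7 and of day 7 with forskolin were fitted separately, and the response to forskolin and the change from day 0 on 18 samples. Steps were tested on simulated data. The members and lists were chosen with earlier results of these data known. The genes named are the members, Nfia, from each list of the Wnt pathway those called, or the 4 with the largest change where more were called, and the 3 genes most like each member that reached 5 FPKM. Marker lists are given by summed levels and by the genes that define or stand apart in them. Alternatives were a pseudocount of 0.1, median-ratio scaling, other filters, fits of the groups compared only, no trend, the replicate number as a block, leaving out each sample, and limma-voom on fragments. Precision is limited by 3 samples per group and, for the low members, by fragment counts.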

Additional observations from a re-analysis of the deposited data

Results flagged for a closer look

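For 3 members, differences in the response to forskolin had a limma adjusted p under 0.05 in a test of the difference itself. For Sfrp4 the response differed by 1.16 between full-length NFIA and control cells and by -1.16 between cells with the Δpro#3 mutant and those with full-length NFIA, in log2(FPKM + 1). For Dkk2 the differences were 0.79 and -1.38, and for Wnt9a, between full-length NFIA and control cells, -0.50. The differences of 0.79 and -0.50 between full-length NFIA and control cells were lost under alternatives, that of Dkk2 with a pseudocount of 0.1 (limma adjusted p = 0.0665) and in limma-voom (0.106), and that of Wnt9a with median-ratio scaling (0.0836), with no filter (0.0865) and in limma-voom (0.0501), and both when some single samples were left out.

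Full-length NFIA and control cells lay in opposite order at day 0 and day 7 for 3 members, with every sample on the other side, and this was not tested. The difference from control moved from day 0 to day 7 by -1.86 for Sfrp4, by -1.62 for Dkk3 and by -0.49 for Frzb, and for Frzb with the Δpro#3 mutant by -0.19. The values of Frzb rest on few fragments.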

How the results depend on the processing

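With median-ratio scaling, the median difference of all genes moved by over 0.1 in 4 comparisons: by 0.163 for full-length NFIA against control and -0.118 for the mutant against full-length NFIA after forskolin, by 0.11 for the forskolin response with full-length NFIA and by 0.111 from day 0 to day 7 with the mutant. The genes with a higher response went from 29.9% to 45.3% of those that differed between full-length NFIA and control and from 72.9% to 51.3% between the mutant and full-length NFIA.

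Called genes rose with a pseudocount of 0.1 to 1569, 417 and 1170 at day 7 (full-length NFIA against control, mutant against control, mutant against full-length NFIA; 1007, 177 and 776 in the analysis reported), to 1464, 400 and 1167 after forskolin (972, 188 and 751), to 87, 184 and 150 for the response in control, full-length NFIA- and mutant-expressing cells (48, 91 and 72) and to 1407 from day 0 to day 7 (849). In limma-voom they were 1640, 479 and 1265, 1534, 465 and 1238, 111, 219 and 185, and 1541. With a minimum mean FPKM of 5, fewer genes were tested and the responses of control and full-length NFIA-expressing cells counted 31 and 60. Of the differences in response between the mutant and control, 608 passed, and 391 to 886 when 1 sample was left out (391, 394 and 399 without control day 7 replicate 1, control forskolin replicate 1 and mutant forskolin replicate 3).

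The fits gave 91 values of members, among them those of Sfrp1 at day 7 and of Sfrp2 from day 0, which are given above with no test. Several of the 91 values changed sign, none of them called in the analysis reported: Wnt9a between mutant and control at day 7 (0.0488 with scaling, -0.14 to 0.10 without 1 sample), Sfrp1 between mutant and control after forskolin (0.00201 with scaling, -0.0663 to 0.00939), the difference in response of Sfrp4 between mutant and control (0.0837 with a pseudocount of 0.1, 0.10 in limma-voom, -0.15 to 0.19), and of Sfrp1 between mutant and full-length NFIA (-0.26, with 0.0569 and 0.14 in these 2, but -0.38 and an adjusted p of 0.0222 with scaling and -0.35 and 0.0168 without full-length NFIA day 7 replicate 2) and full-length NFIA and control (0.13 with scaling, -0.0706 to 0.0871). Without 1 sample so did Wnt9a at day 7 between full-length NFIA and control (-0.0194 to 0.12) and between mutant and full-length NFIA (-0.19 to 0.0524), after forskolin Dkk2 (-0.23 to 0.0444) and Sfrp2 (-0.33 to 0.0242) between mutant and control, and the difference in response of Dkk3 between full-length NFIA and control (-0.0835 to 0.18). The cause was not tested. Same-numbered samples correlated between -0.185 and 0.358 in their deviations from the group means. Whether they share more than a number, such as a culture or a batch, cannot be told from this. With the number as a replicate block, all 91 values, including those given with no test, kept their sign and their side of the call. Wnt9a between mutant and full-length NFIA after forskolin (0.30) then had a limma adjusted p of 0.0664. The log2 ratio of Sfrp2 at day 0 was 7.41 to 7.75 without 1 sample.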
